A study of Mus musculus with 7 samples.

Results

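Genes for Wnt, Fgf, Bmp and Gdf signalling proteins were examined in mouse sperm RNA measured on 7 expression arrays. They were taken from the platform annotation by name: every probe set with exactly 1 gene symbol that consists of Wnt, Fgf, Bmp or Gdf, a number and at most 1 further letter. This gave 64 probe sets for 61 genes, out of 23493 probe sets for 22154 genes with 1 symbol. There were 19 Wnt, 22 Fgf, 12 Bmp and 8 Gdf genes, and Fgf10, Fgf15 and Gdf5 had 2 probe sets each. The names also take in genes that encode no secreted ligand: Bmp1 is a protease that trims procollagens, Bmp2k is a protein kinase, and Fgf11, Fgf12, Fgf13 and Fgf14 are Fgf proteins that stay inside the cell. The probe set of Gdf1 also carries the symbol Cers1 and was not a member.

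The arrays compare 3 groups of males. Transgenic males, TG3, carried a KDM1A transgene: the construct had been injected into C57BL/6 zygotes, both founders were female, and heterozygous males passed it on by mating with C57BL/6 females up to generation 3. The nonTG3 males were littermates of generation 3 without the transgene, and the C57BL/6 males came from outside the line. TG3 and nonTG3 had 3 arrays each, every one a pool of RNA from 4 males, and C57BL/6 had 1 array with a pool from 5 males. TG3 and nonTG3 together are called the line. KDM1A is a demethylase of histone H3 lysine 4. The sources used here do not name the promoter that drives the transgene, the age of the males, or whether a male entered more than 1 pool. The p-values set each difference against the spread between pools within TG3 and within nonTG3, to which the single C57BL/6 pool adds nothing. Since a male may have entered more than 1 pool, they speak only for these pools. Of 7 marker genes of late spermatids and sperm 6 were measured, and their mean log2 intensity was 11.18 on C57BL/6 and 10.07 to 10.33 on the line, against array medians of 3.52 to 3.61.

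Wnt proteins bind Frizzled receptors and Lrp co-receptors and stabilise beta-catenin or act through other routes on cell shape. Fgf proteins bind receptor tyrosine kinases, except for the intracellular subfamily, and Bmp and Gdf proteins bind serine/threonine kinase receptors that phosphorylate Smad proteins. They pattern the embryo and act in the gonads: in mice Bmp4 and Bmp8b help to induce primordial germ cells, Bmp8a and Bmp8b maintain spermatogenesis, Wnt4 acts in the ovary, Fgf9 acts in the developing testis, and Gdf9 and Bmp15 are made by oocytes. Wnt1, named for its part in mouse mammary tumours and needed for the midbrain, is also known from round spermatids of the adult mouse.

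The 200 bases before the annotated start of 4 of these genes are shown: Wnt1, which had the highest signal, Bmp8a and Bmp8b, paralogues that were above the array median on every array, and Wnt7a, which had the smallest adjusted p of any member. They are the RefSeq sequences of build GRCm38.p6, written 5′ to 3′ on the strand of the gene, with CG dinucleotides in capitals. The table of start regions held 43 of the 61 genes, 70.5%, too few for a statement about the whole set.
Wnt1, chr15:98789657-98789856, plus strand: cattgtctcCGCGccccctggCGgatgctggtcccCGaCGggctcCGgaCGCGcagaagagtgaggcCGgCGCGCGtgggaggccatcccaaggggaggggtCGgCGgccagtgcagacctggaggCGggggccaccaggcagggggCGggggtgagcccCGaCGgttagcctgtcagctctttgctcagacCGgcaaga
Bmp8a, chr4:123343253-123343452, minus strand: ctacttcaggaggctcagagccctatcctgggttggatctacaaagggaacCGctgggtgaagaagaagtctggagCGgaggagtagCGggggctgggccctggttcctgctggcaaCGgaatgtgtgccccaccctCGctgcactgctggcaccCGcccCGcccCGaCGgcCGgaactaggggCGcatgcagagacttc
Bmp8b, chr4:123104961-123105160, plus strand: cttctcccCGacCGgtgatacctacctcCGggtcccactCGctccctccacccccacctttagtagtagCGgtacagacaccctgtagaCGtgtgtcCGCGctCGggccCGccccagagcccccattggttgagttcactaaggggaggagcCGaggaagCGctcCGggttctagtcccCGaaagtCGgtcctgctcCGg
Wnt7a, chr6:91411354-91411553, minus strand: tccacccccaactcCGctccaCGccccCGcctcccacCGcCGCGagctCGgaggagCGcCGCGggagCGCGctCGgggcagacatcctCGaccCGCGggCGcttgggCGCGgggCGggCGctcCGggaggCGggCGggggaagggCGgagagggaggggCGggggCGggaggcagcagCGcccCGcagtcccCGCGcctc
CG occurred 19 times before Wnt1, 11 times before Bmp8a, 16 times before Bmp8b and 31 times before Wnt7a, where the median over all 32851 windows of this length was 5. As many CG or more were found in 14.4%, 31.7%, 20.4% and 2.12% of all windows, in the same order. CG reads the same on both strands, and these counts describe the letters alone.

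Most of these genes gave signals near or below the middle of the array. Values are log2 intensities normalised by the authors with RMA, and a level is set here against the median of all probe sets on the same array. Of the 64 probe sets, 21 (32.8%) were above the array median in C57BL/6, 27 (42.2%) in TG3 and 29 (45.3%) in nonTG3, by group mean. Over all probe sets with 1 symbol the shares were 55.7%, 55.6% and 55.3%. Array by array the count was 21 on C57BL/6, 30, 29 and 27 on TG3 and 30, 29 and 29 on nonTG3, in replicate order, so the C57BL/6 array had the lowest count. Whether signals below the array median lie above background was not measured. Probe sets also differ in how well they bind their RNA, so the order of their signals is not an order of RNA amounts.

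**Figure D1:**
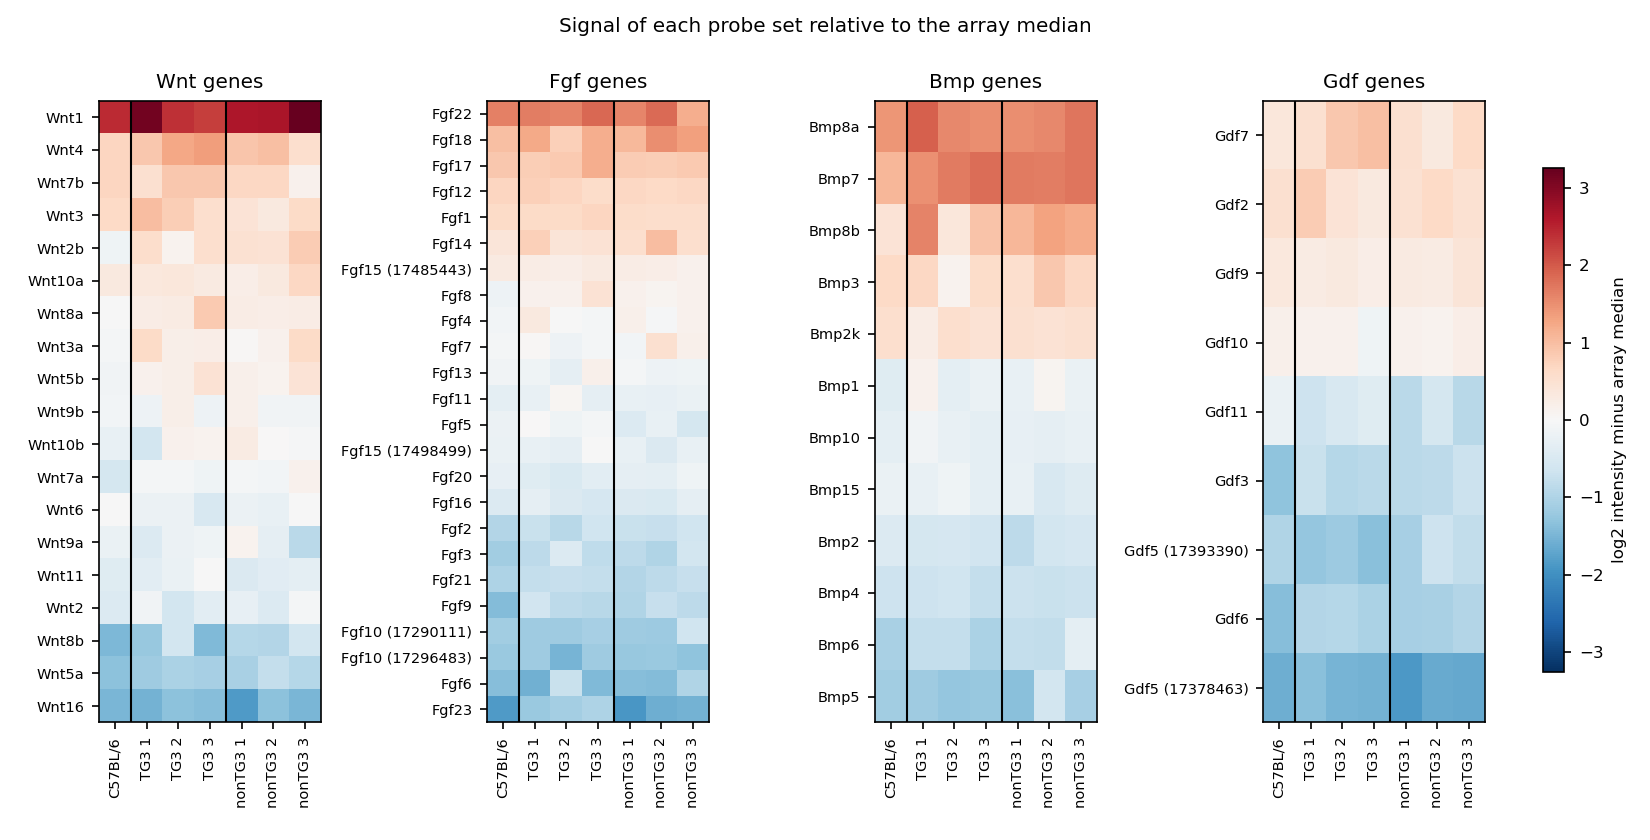
Log2 intensity minus the array median for each of the 64 probe sets (rows, sorted by mean within family) on the 7 arrays (columns), red above and blue below the median. Wnt1 is the reddest row on every array, and 28 rows are blue on all 7 arrays.

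**Figure D2:**
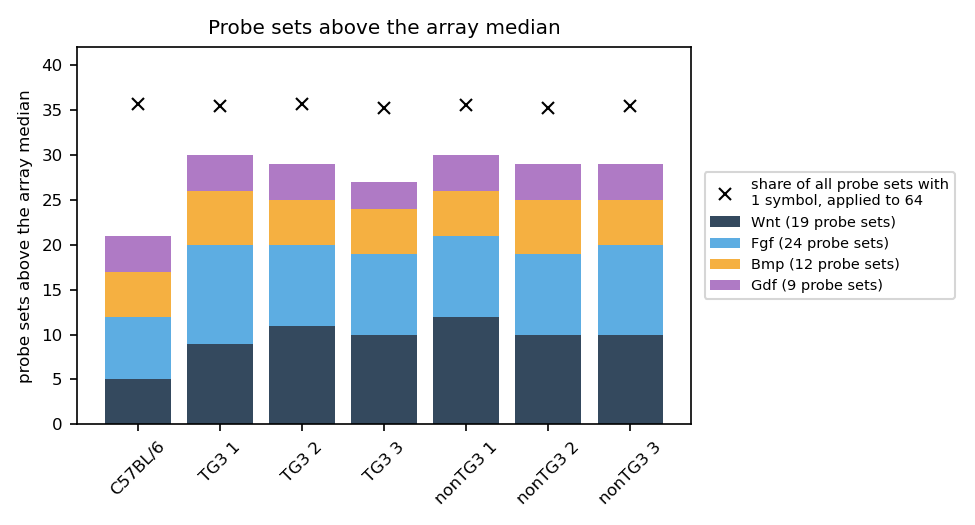
Number of probe sets above the array median on each array, stacked by family (bars, starting at 0), with crosses at the number out of 64 that the share of all probe sets with 1 symbol would give. The C57BL/6 bar ends at 21 and the bars of the line end between 27 and 30, all below the crosses.

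Of the 64 probe sets 48 kept to the same side of the array median on every array. Above the median on all 7 arrays were 20 probe sets: Wnt1, Wnt3, Wnt4, Wnt7b and Wnt10a, Fgf1, Fgf12, Fgf14, Fgf17, Fgf18, Fgf22 and 1 probe set of Fgf15, Bmp3, Bmp7, Bmp8a, Bmp8b and Bmp2k, and Gdf2, Gdf7 and Gdf9. Below it on all 7 arrays were 28: Wnt2, Wnt5a, Wnt6, Wnt8b, Wnt11 and Wnt16, Fgf2, Fgf3, Fgf6, Fgf9, Fgf16, Fgf20, Fgf21, Fgf23, both probe sets of Fgf10 and the other of Fgf15, Bmp2, Bmp4, Bmp5, Bmp6, Bmp10 and Bmp15, and Gdf3, Gdf6, Gdf11 and both probe sets of Gdf5. The remaining 16 crossed it: Wnt2b, Wnt3a, Wnt5b, Wnt7a, Wnt8a, Wnt9a, Wnt9b and Wnt10b, Fgf4, Fgf5, Fgf7, Fgf8, Fgf11 and Fgf13, Bmp1 and Gdf10. Among these, Wnt2b, Wnt3a, Wnt5b, Wnt8a and Fgf8, chosen after their values were seen, were below the median on C57BL/6 and above it on all 6 arrays of the line.

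Wnt1 had the highest signal of the 64. It read 5.94 on C57BL/6, 6.70, 5.92 and 5.87 on TG3, and 6.19, 6.23 and 6.79 on nonTG3, in replicate order as in all such lists. The groups overlapped, with means of 6.16 ± 0.47 (SD, n = 3) for TG3 and 6.41 ± 0.34 (SD, n = 3) for nonTG3. The highest readings were those of TG3 replicate 1 and nonTG3 replicate 3. On the same arrays, in the order given, 13 genes of fibroblasts, muscle and vessels averaged 4.60, then 5.73, 4.50 and 4.68, then 4.92, 4.89 and 5.43. They include Acta2, a smooth muscle actin, and 3 collagen genes, and their part in the Wnt1 readings was not tested. Wnt4 read 4.23 on C57BL/6, 4.43, 4.79 and 4.98 on TG3 and 4.44, 4.55 and 4.09 on nonTG3. Its lowest readings within both groups fell on the same pair of arrays that read Wnt1 highest.

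Among the Bmp genes the highest signals were those of Bmp8a, Bmp7 and Bmp8b. Bmp8a read 4.95 on C57BL/6, 5.50, 5.09 and 5.13 on TG3 and 5.07, 5.13 and 5.29 on nonTG3. Every array of the line was above C57BL/6, and TG3 and nonTG3 overlapped. Its paralogue Bmp8b read 3.95 on C57BL/6, 5.16, 3.90 and 4.54 on TG3 and 4.64, 4.89 and 4.73 on nonTG3. TG3 was uneven here, with an SD of 0.63 (n = 3) against 0.13 (n = 3) in nonTG3, and TG3 replicate 2 lay below C57BL/6. Cross-binding between the probes of these paralogues was not examined, so their separate values are uncertain. Bmp7, a factor of kidney and eye development, read 4.59 on C57BL/6, 5.04, 5.23 and 5.42 on TG3 and 5.23, 5.23 and 5.29 on nonTG3, and the line did not overlap C57BL/6.

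Of the Fgf genes Fgf22, a ligand known from synapses, read 5.15 on C57BL/6, 5.22, 5.15 and 5.49 on TG3 and 5.15, 5.42 and 4.73 on nonTG3. The C57BL/6 value lay within the range of the line. Fgf18, which acts on cartilage and bone, read 4.49 on C57BL/6, 4.78, 4.30 and 4.78 on TG3 and 4.60, 5.10 and 4.88 on nonTG3. Nearly all its readings on the line, 5 of 6, were above C57BL/6. Fgf8, an organiser of limb and brain, read 3.36 on C57BL/6 and 3.66 to 4.09 on the line. Of the Gdf genes Gdf7, a factor of the dorsal spinal cord, had the highest signal, with 3.87 on C57BL/6, 4.07, 4.40 and 4.60 on TG3 and 4.07, 3.90 and 4.19 on nonTG3. The oocyte factor Gdf9 read 3.85 on C57BL/6 and 3.82 to 3.95 on the line, a narrow range.

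**Figure D3:**
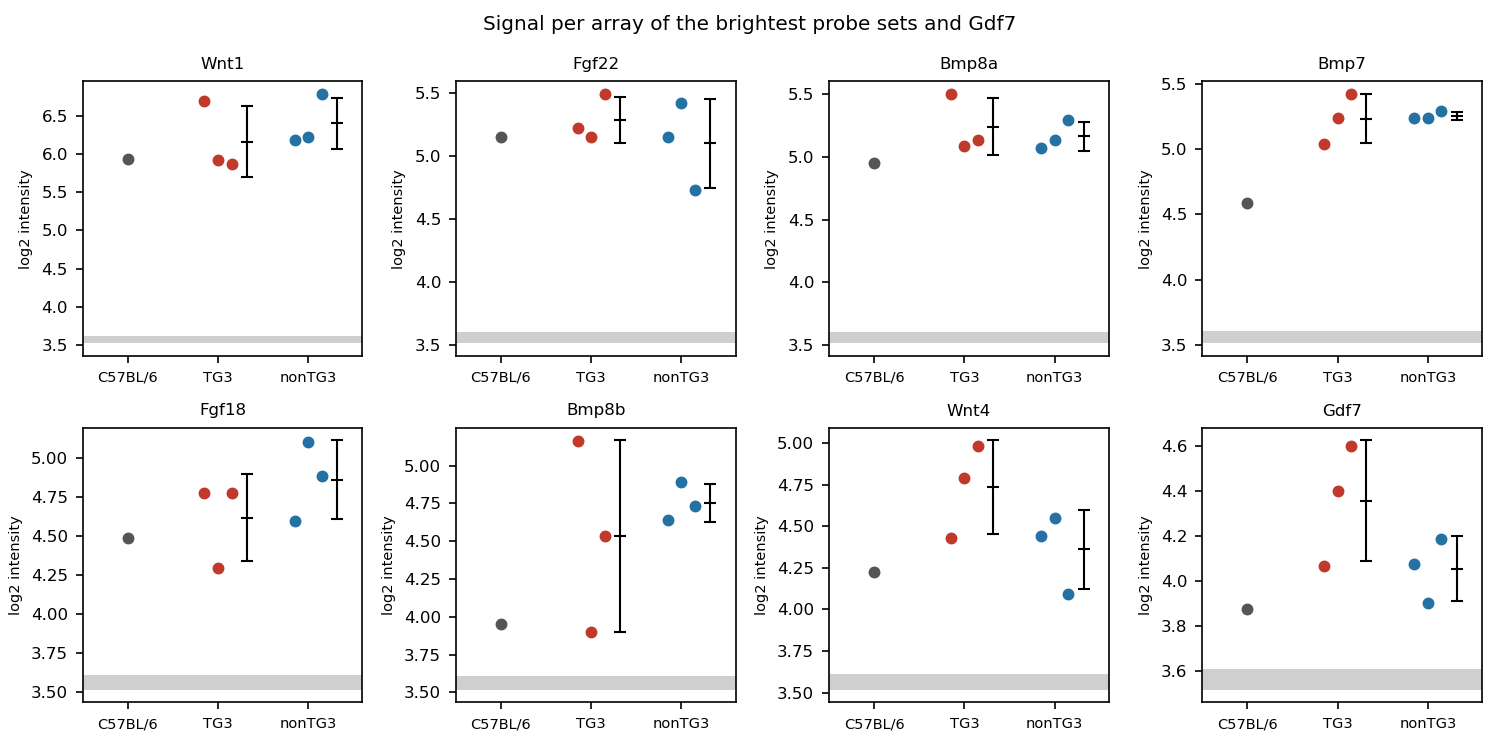
Log2 intensity per array (points) of the 7 probe sets with the highest means and of Gdf7, in C57BL/6 (1 array), TG3 and nonTG3 (3 arrays each, in replicate order); bars give the mean ± SD and the grey band the range of the array medians, and axes do not start at 0. TG3 and nonTG3 overlap in every panel, and the line lies above the C57BL/6 point throughout for Bmp8a, Bmp7 and Gdf7.

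Several factors with known parts in germ cells and gonads gave dim signals on every array. Bmp4 read 2.84 on C57BL/6 and 2.84 to 2.87 on the line. Bmp15 read 3.30 on C57BL/6 and 3.06 to 3.38 on the line. Fgf9 read 2.09 and 2.57 to 2.94, Fgf2 read 2.56 and 2.62 to 2.96, and Wnt5a read 2.18 and 2.38 to 2.79, in the same order. The lowest means of their families were those of Wnt16, at 2.02 on C57BL/6 and 2.07 ± 0.20 (SD, n = 6) on the line, Bmp5, at 2.39 and 2.44 ± 0.28 (SD, n = 6), Fgf23, and 1 probe set of Gdf5. Exact ties were common: 30 of the 64 probe sets (46.9%) took 4 or fewer distinct values over the line's 6 arrays, as did 30.9% of all probe sets with 1 symbol. Of the 24 Fgf probe sets 15 were tied in this way, of the 12 Bmp probe sets 8, of the 19 Wnt probe sets 5 and of the 9 Gdf probe sets 2.

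Between TG3 and nonTG3, which asks what differs with the transgene among littermates, no member passed the test. With limma, 0 of 64 were called at an adjusted p under 0.05, and 0% of all 23493 probe sets were. At an unadjusted p under 0.05 there were 5 members, 7.81%, against 2.38% of all probe sets. These were Fgf23, Fgf5, Wnt3 and both probe sets of Gdf5, each at a limma adjusted p of 0.923. The median difference was 0.019 over the members, with 37 higher and 27 lower in TG3, and 0.0045 over all probe sets with 1 symbol. The member median was -0.0023 without nonTG3 replicate 1 and 0.061 without TG3 replicate 2, so its direction rested on single arrays.

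Fgf23, a bone hormone that lowers blood phosphate, had the smallest unadjusted p. It read 2.33, 2.42 and 2.61 on TG3 and 1.65, 1.998 and 1.998 on nonTG3, with 1.67 on C57BL/6. TG3 and nonTG3 did not overlap, but every reading was below its array median. Fgf5, which ends the growth phase of hair, read 3.57, 3.40 and 3.54 on TG3 and 3.10, 3.34 and 2.98 on nonTG3, also without overlap. An exact two-sided permutation test gave p = 0.1 for Fgf23, Fgf5 and each Gdf5 probe set, the smallest that 3 against 3 arrays can give. The 2 probe sets of Gdf5, a factor of joint formation, differed in opposite directions. The first, 17393390, read 2.28, 2.36 and 2.25 on TG3 and 2.46, 2.89 and 2.73 on nonTG3, and the second, 17378463, read 2.20, 2.01 and 2.08 on TG3 and 1.68, 1.93 and 1.87 on nonTG3. Neither overlapped, so the direction for Gdf5 depends on the probe set read.

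Without overlap between the groups, 3 members were higher in TG3 (4.69%, against 2.47% of all probe sets) and 1 was lower (1.56%, against 1.65%). Wnt3, needed for the primitive streak, read 4.56, 4.33 and 4.16 on TG3 and 3.99, 3.89 and 4.16 on nonTG3. TG3 replicate 3 and nonTG3 replicate 3 had exactly equal values, so the groups touched. Wnt4 overlapped, with a TG3 mean of 4.73 ± 0.28 (SD, n = 3) and a nonTG3 mean of 4.36 ± 0.24 (SD, n = 3). Lower means in TG3 with the next smallest p belonged to Fgf20, Wnt5a, Bmp6 and Fgf7, with differences of -0.16, -0.16, -0.21 and -0.25 log2 units and limma adjusted p of 0.923 each. Leaving out 1 array gave -0.07 (without nonTG3 replicate 2) to -0.40 (without nonTG3 replicate 1) for Fgf7, -0.06 (without nonTG3 replicate 3) to -0.29 (without nonTG3 replicate 1) for Bmp6, and -0.08 (without nonTG3 replicate 2) to -0.23 (without nonTG3 replicate 1) for Wnt5a. Among these, Fgf7, a growth factor of epithelia, read 3.59, 3.36 and 3.55 on TG3 and 3.45, 4.09 and 3.70 on nonTG3, with its highest reading on nonTG3 replicate 2.

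**Figure D4:**
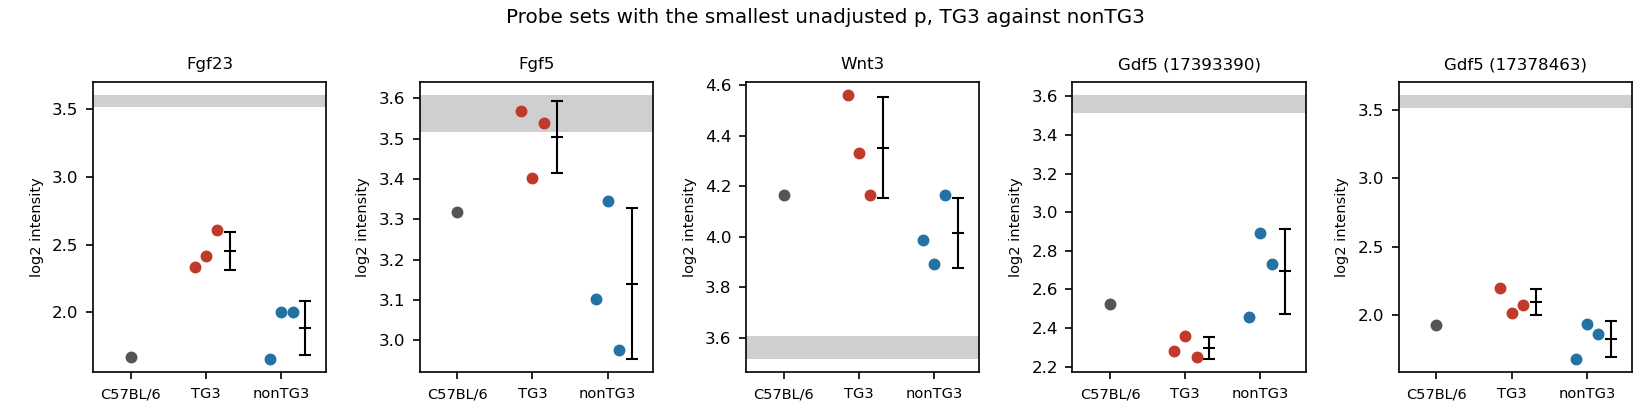
Log2 intensity per array (points) of the 5 probe sets with an unadjusted limma p under 0.05 between TG3 and nonTG3, with mean ± SD and the range of the array medians in grey; axes do not start at 0. Fgf23, Fgf5 and both Gdf5 probe sets show no overlap, in opposite directions for the 2 Gdf5 probe sets, and 4 of the 5 panels lie at or below the grey band.

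Against the C57BL/6 array, which asks how sperm of the line differ from sperm of outside males, no member was called either. With limma, 0 of 64 passed between the line and C57BL/6, where 3.02% of all probe sets did. At an unadjusted p under 0.05 there were 8 members, 12.5%, against 12.2% of all probe sets: Wnt2b, Wnt5a, Wnt7a, Fgf9, Fgf23, Bmp7, Gdf3 and Gdf6, all higher in the line by mean. The C57BL/6 array has no replicate, and the test takes it to vary like the arrays of the line. The median difference over the members was 0.13 log2 units, with 51 higher and 13 lower in the line, and over all probe sets with 1 symbol it was 0.037, with 14340 higher and 9148 lower. By family the median was 0.27 for Wnt, 0.13 for Fgf, 0.080 for Bmp and 0.035 for Gdf probe sets.

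All 6 arrays of the line lay above C57BL/6 for 23 of the 64 probe sets, 35.9%, where 18.2% of all probe sets did. They comprised 7 Wnt, 8 Fgf, 5 Bmp and 3 Gdf probe sets, and 12 of the 23 took 5 or more distinct values there. All 6 lay below it for 2 members, 3.12%, against 14.3% of all probe sets: Gdf11, a factor of the body axis, and Bmp2, a bone and heart factor. A single pool on the C57BL/6 side sets all of these counts, so the pool and the origin of the males (the line or outside it) cannot be told apart.

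The smallest p-values belonged to Wnt7a, Gdf6, Bmp7, Fgf9 and Gdf3. Wnt7a, which patterns the female reproductive tract, read 2.95 on C57BL/6. On the line it read 3.69 on nonTG3 replicate 3 and exactly 3.48 on the other 5 arrays (limma adjusted p = 0.0818). Gdf6, a factor of skull and eye development, read 2.12 on C57BL/6 and 2.56 ± 0.05 (SD, n = 6) on the line (limma adjusted p = 0.0983). Both were dim, and their small spread on the line came with ties. Bmp7, the brightest of these genes, differed by 0.65 ± 0.15 log2 units (SE; limma adjusted p = 0.118), with 6 of 6 arrays higher. Bmp7 had ties too, reading 5.2329 on TG3 replicate 2 and on nonTG3 replicates 1 and 2. Fgf9 averaged 2.73 ± 0.13 (SD, n = 6) against 2.09 on C57BL/6 (limma adjusted p = 0.122). Gdf3, a Nodal-like factor of early embryos, averaged 2.73 ± 0.10 (SD, n = 6) against 2.22 (limma adjusted p = 0.15).

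The smallest p-values among the 13 members lower in the line by mean belonged to Gdf11, Bmp2, Wnt6, Bmp15 and the kinase gene Bmp2k. None of them was called. Gdf11 read 3.30 on C57BL/6, 2.88, 3.00 and 3.21 on TG3 and 2.68, 3.00 and 2.64 on nonTG3 (limma adjusted p = 0.514). Bmp2 read 3.08 on C57BL/6, 2.98 on all 3 TG3 arrays and on nonTG3 replicates 2 and 3, and 2.70 on nonTG3 replicate 1. Wnt6 read 3.49 on C57BL/6 and 3.08 to 3.52 on the line, so its groups overlapped.

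**Figure D5:**
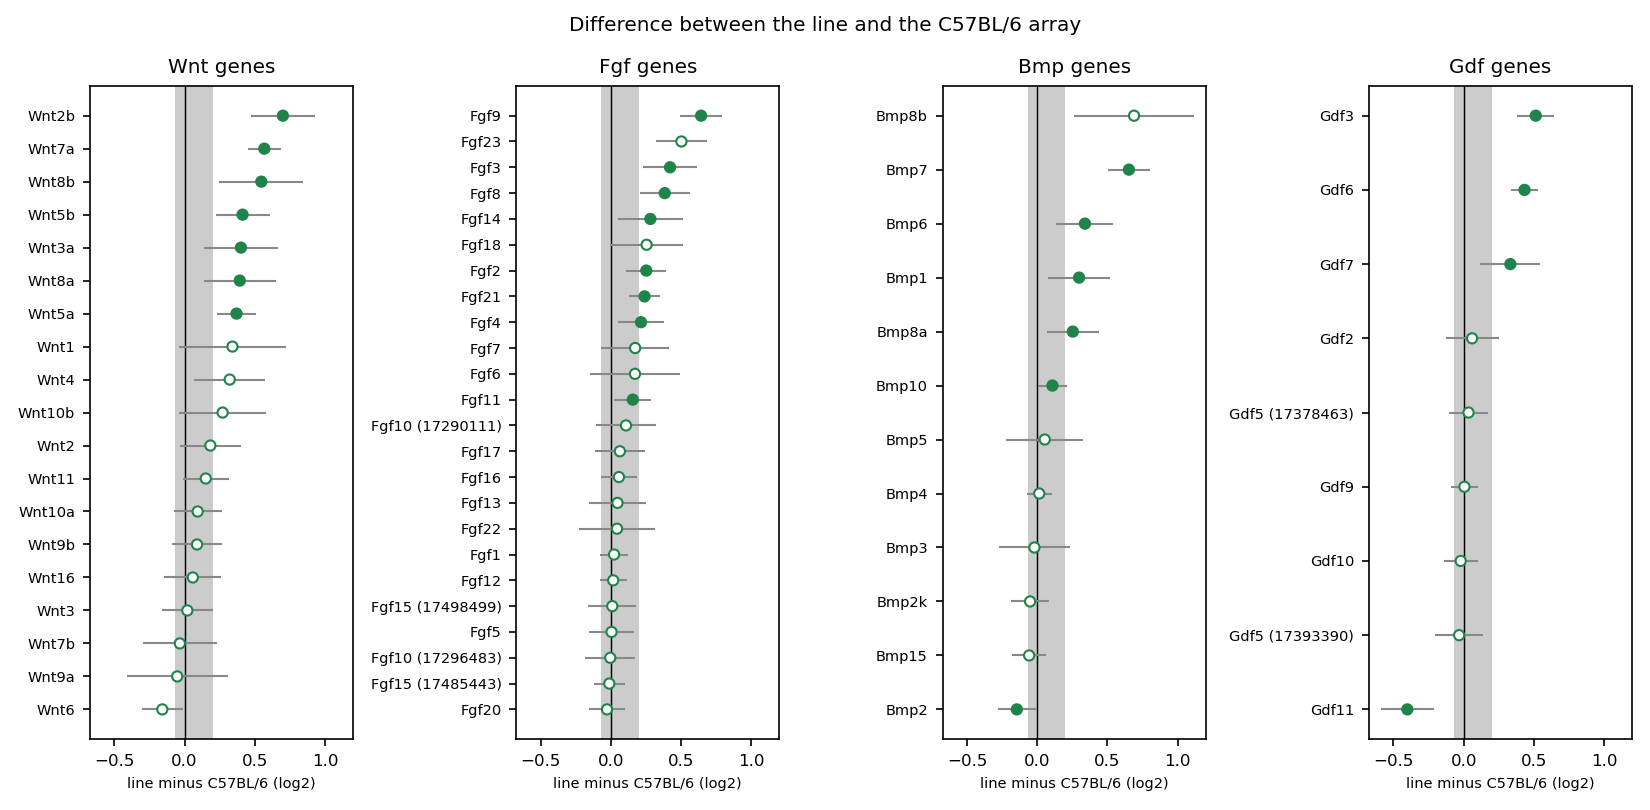
Difference of each probe set between the mean of the line (6 arrays) and the C57BL/6 array, in log2 units (points) with the SE from limma (bars), by family; filled points are probe sets with all 6 arrays on the same side of C57BL/6, and the grey band holds the middle 50% of all probe sets with 1 symbol. Filled points on the right number 23 and on the left 2, Gdf11 and Bmp2.

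TG3 and nonTG3 were also set against C57BL/6 separately, sharing that array. Of the 64, 0 were called in TG3 and 0 in nonTG3, with 2.53% of all probe sets called in each comparison. The member median was 0.16 log2 units in TG3, with 53 higher, and 0.14 in nonTG3, with 49 higher. Bmp7 differed by 0.64 ± 0.16 (SE) in TG3 and 0.66 ± 0.16 (SE) in nonTG3, at limma adjusted p of 0.158 and 0.148. Fgf23 was on the list of smallest p-values for TG3 alone, at 0.79 ± 0.19 (SE; limma adjusted p = 0.147). Wnt7a had the smallest p for nonTG3, at 0.60 ± 0.12 (SE; limma adjusted p = 0.0947).

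Markers of sperm and of other cells differed between the C57BL/6 array and the line. Of the 6 sperm and late spermatid genes 2 were called lower in the line: Tnp1, a transition protein of spermatid chromatin, read 12.40 on C57BL/6 and averaged 9.51 ± 0.21 (SD, n = 6) on the line (limma adjusted p = 0.00218), and the protamine gene Prm1 read 11.64 and averaged 10.19 ± 0.09 (SD, n = 6; limma adjusted p = 0.00535). Without a call, Odf1 and Smcp differed by only -0.039 and -0.085 log2 units, and Tnp2 and Akap4 by -0.42 and -0.97. The 5 measured Leydig cell genes, of which 3 were called lower, averaged 4.07 on C57BL/6 and 2.37 to 2.68 on the line, with Cyp17a1, an enzyme of androgen synthesis, at 6.56 and 2.16 to 2.70. The Leydig cell genes that were not called, Cyp11a1 and Hsd3b1, differed by only 0.013 and -0.010 log2 units. The 10 Sertoli cell genes averaged 4.22 and 3.52 to 3.81. Cst9, a Sertoli cell cystatin, read 7.66 on C57BL/6 and 2.32 to 3.30 on the line and was the 1 Sertoli gene called. The median difference of that list was -0.0037. Sox9, Wt1, Amh, Dhh and Fshr were higher in the line by 0.20, 0.15, 0.15, 0.54 and 0.022 log2 units without a call. Aard, Rhox5, Clu and Gata1 were lower, with differences of -0.86, -0.20, -0.13 and -0.029, also without a call. Leukocyte genes averaged 3.58 and 3.23 to 3.76, and genes of the epididymal epithelium 4.13 and 4.12 to 4.62. Of the 9 measured epididymal genes 1 was called, Lcn8, and it was higher in the line. Lcn8 read 2.45 on C57BL/6 and 3.07 to 3.25 on the line (limma adjusted p = 0.0344), below the array median throughout. In pooled RNA fewer cells of a type and less RNA per cell cannot be told apart, and the part of these markers in the member differences was not tested.

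Arrays of the line also differed among themselves. The mean of 10 mitochondrially encoded genes was 11.24 on C57BL/6, 8.80, 11.44 and 11.51 on TG3 and 11.55, 9.98 and 8.91 on nonTG3, so TG3 replicate 1 and nonTG3 replicate 3 were lowest. On this pair of arrays 6 members were higher than on the other 4 arrays of the line (9.38%, against 13.9% of all probe sets): Wnt1, Wnt2, Wnt3a, Fgf16, Bmp8a and Gdf3. Lower than on the other 4 were 5 members (7.81%, against 9.93% of all probe sets), and all of these were Wnt genes: Wnt4, Wnt7b, Wnt9a, Wnt9b and Wnt10b. Except for those that the naming rule covers, these members were chosen after their values were seen. Wnt3a, a ligand needed for the formation of somites, read 4.17 and 4.16 on the pair and 3.58 to 3.83 on the others. Wnt7b, of lung and kidney, read 4.07 and 3.68 on the pair and 4.22 to 4.49 on the others. The largest spread on the line was that of Bmp8b, with an SD of 0.43 (n = 6), followed by Wnt1 with 0.39, Fgf23 with 0.35 and Wnt9a with 0.35. Wnt9a read 2.65 on nonTG3 replicate 3 and 3.11 to 3.66 on the line's other arrays.

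Genes that release, receive, transmit, restrain or answer these ligands, and genes of other TGF-beta superfamily ligands, were measured too. Of 113 such genes in 10 lists, 0 were called between TG3 and nonTG3 and 1 between the line and C57BL/6, with 0 lower, where 3.02% of all probe sets were called in the line. That gene was Rnf43, a membrane ubiquitin ligase that removes Frizzled receptors, which read 4.63 on C57BL/6, 5.30, 5.36 and 5.30 on TG3 and 5.30, 5.41 and 5.33 on nonTG3. The line was 0.70 log2 units higher, at a limma adjusted p of 0.0246, with 6 of 6 arrays above C57BL/6. Its spread on the line was small, with an SD of 0.044 (n = 6). TG3 replicates 1 and 3 and nonTG3 replicate 1 all read 5.3028. Leaving out TG3 replicate 2 or any of the nonTG3 replicates ended the call, 4 of 6 such fits, with a limma adjusted p of up to 0.0611, while the difference stayed between 0.68 and 0.71. Rnf43 was also called against C57BL/6 in TG3 and in nonTG3, at limma adjusted p of 0.0363 and 0.0324, and leaving out any 1 array ended both calls. Of the receptors, 0 of 15 for Wnt and 0 of 7 for Fgf signals were called. Of 17 receptors and Smad proteins for Bmp, activin and TGF-beta signals 0 were called. The Wnt co-receptor Lrp5 read 6.34 on C57BL/6 and 6.61 to 6.96 on the line, and Fgfr1 read 3.28 and 3.54 to 4.10, at limma adjusted p of 0.354 and 0.401. Smad3, which carries activin and TGF-beta signals, read 3.39 and 3.54 to 4.14 (limma adjusted p = 0.359).

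Inhibitors and targets were measured as well. Of 14 Wnt inhibitors only Rnf43 was called, and of 13 Bmp inhibitors and 11 Fgf feedback inhibitors and targets 0 were. Sfrp5, a secreted Wnt antagonist, read 2.01 on C57BL/6, 3.05, 2.85 and 2.63 on TG3 and 2.33, 2.33 and 2.65 on nonTG3 (limma adjusted p = 0.253 for the line). Of 6 Wnt targets and 5 Bmp targets 0 were called. The Wnt target Axin2 read 5.44 on C57BL/6 and 4.95 to 6.30 on the line, and the Bmp target Id2 read 6.45 and 5.90 to 7.30, both wide ranges with C57BL/6 inside them. The Wnt target Nkd1 read 3.21 on C57BL/6 and 3.68 to 4.79 on the line (limma adjusted p = 0.506). Nkd2 and Sp5 also had every array of the line above C57BL/6, while Lgr5 and Notum did not. Of 13 other ligands of the TGF-beta superfamily 0 were called. Inhba, an activin subunit, read 2.66, 2.84 and 2.64 on TG3 and 2.21, 2.33 and 2.44 on nonTG3, without overlap and below the array median, at an unadjusted limma p of 0.00981. The 13 measured genes of Wnt secretion and intracellular signalling held 0 called members, and Tcf7l2, a transcription factor that beta-catenin binds, read 4.83 on C57BL/6 and 5.07 to 5.72 on the line (limma adjusted p = 0.314).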

How the data were processed

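RNA of 7 sperm pools was measured on expression arrays. The deposited values are log2 intensities that the authors made with RMA, which corrects background, normalises arrays to a common distribution and summarises probes. R 3.1.0, oligo, RMA and limma are named, per the submitters' processing notes. The arrays' number limits the precision, since arrays have no read depth.

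Probe sets with 1 symbol in the platform annotation were tested. All 64 members matched the RefSeq table (GRCm38.p6) by Entrez ID with 0 symbols changed. limma 3.58.1 in R 4.3.3 fitted a mean per group to all 7 arrays, and eBayes moderated the spread (4 residual and 1.65 prior degrees of freedom). The Benjamini-Hochberg adjustment ran over 23493 probe sets in each contrast, and an adjusted p under 0.05 was called. No filter on dim probe sets was used. Members and lists were chosen with earlier results of these data known. Line means weight TG3 and nonTG3 equally. Named members were those at least 1 log2 unit above the array median, the 5 smallest p-values per contrast and direction, the 4 largest spreads, the family extremes, and 11 genes known from germ cells or gonads. Of the pathway lists, called genes and a few others were named, not always those with the smallest p of their list. Each list gene used its probe set with the highest mean, and mitochondrial genes were matched by the annotation's symbols after the files were seen. The steps were tested on simulated data. Other normalisations, eBayes settings, thresholds, probe set filters, fewer arrays or groups and the replicate block were tried. Figures used matplotlib 3.10.9.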

Additional observations from a re-analysis of the deposited data

How the results depend on the processing

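Under the alternatives run, 0 members were called in any contrast, except at an adjusted p under 0.1, which called 2 members between the line and C57BL/6 (Wnt7a and Gdf6) and 1 between nonTG3 and C57BL/6 (Wnt7a). That threshold called 938 probe sets for TG3 and 904 for nonTG3 against C57BL/6, where 595 and 594 were called at 0.05. Fits to only the 2 groups compared called 0 and 54. Without both arrays of lowest mitochondrial signal, chosen after seeing the data, 0 probe sets were called for the line, 0 for TG3 and 0 for nonTG3 against C57BL/6, where the line had 710. The smallest limma adjusted p for the line in that fit was 0.052, just above the threshold, with fewer arrays to set the spread. Leaving out 1 array at a time gave 350 to 496 for the line: 396 without TG3 replicate 2 and 428, 350 and 438 without nonTG3 replicates 1, 2 and 3. The same gave 272 to 333 for TG3 and, for nonTG3, 228 without nonTG3 replicate 2 to 397 without TG3 replicate 3. Pathway genes called then numbered 0 to 1 for the line, 0 for TG3 and 0 for nonTG3. Against C57BL/6 the member median was 0.11 for TG3 and 0.086 for the line after centring each array on its median, where the reported values were 0.16 and 0.13. For the line it was 0.10 after repeated quantile normalisation and 0.19 over probe sets at or above the array median. Over members with 5 or more distinct values, added after seeing the data, it was 0.23 for the line and 0.21 for nonTG3. All 280 recomputed differences of named members kept their direction and their side of the threshold. Some could not change in size: leaving out a nonTG3 array does not alter TG3 minus C57BL/6, nor a TG3 array nonTG3 minus C57BL/6. Other small differences moved by over 1.5 times when 1 array was left out, such as Fgf7, Bmp6 and Wnt5a between TG3 and nonTG3. The member median between TG3 and nonTG3 ran from -0.0023 to 0.061. The cause of these shifts was not tested. Arrays of TG3 and nonTG3 with the same replicate number did not deviate together (r = -0.45, 0.016 and -0.40). The labels do not say whether the numbers pair arrays, and so few arrays cannot settle it. With the replicate block 0 members and 0 probe sets were called and the member median was 0.019.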

Other observations

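Values equal to 4 decimals recurred between members. The 448 readings of the 64 probe sets held 328 distinct values, 73.2%, and the 164451 readings of all probe sets with 1 symbol held 115779, 70.4%. The value 4.2187 was read 12 times among the members, by Wnt7b, Wnt10a, Fgf12 and Bmp3, and 325 times over all, by 161 probe sets. The value 3.6793 was read 9 times by Gdf10 and Fgf8, and 3.8002 was read 8 times by Wnt8a and Fgf15. The value 2.3853 was read 6 times by both probe sets of Fgf10. The origin of these shared values was not tested.

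The probe set that carries both Gdf1 and Cers1 read 4.28 on C57BL/6 and 4.22 to 4.45 on the line, and that of Paqr3 and Bmp2k read 3.32 and 2.84 to 3.44. With 1 C57BL/6 pool and 3 pools in each other group, the number of arrays limits which differences can be called.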
